A study of Mus musculus with 12 samples.

Results

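The comparison is between liver immune cells of mice given an antibody to PD-L1 and those of mice given control IgG, 3 libraries against 3, chosen by the labels from a series of 12 libraries in 4 groups. All mice were C57BL/6 and received human c-Myc and N-ras by hydrodynamic transfection on day 0, a rapid intravenous injection that carries plasmid DNA mainly into hepatocytes, so both groups carry the 2 oncogenes. The control group received PBS intraperitoneally on days 14, 16, 18, 20 and 22 and 200 µg of IgG on days 17, 19 and 21. In the antiPDL1 group the same PBS schedule was combined with 200 µg of PD-L1 antibody on those 3 days. Livers were taken on day 24 according to the treatment protocol, whereas the time point given for each sample is day 22. CD45-bearing cells were bound by a PE-labelled antibody and taken up on magnetic PE beads, and polyadenylated RNA was sequenced with a stranded kit. Nothing in the labels ties the 3 replicates to separate mice, so p-values measure the spread between libraries, which may be technical. That spread was estimated within the 4 groups over all 12 libraries, not from the 6 compared here alone. No library of tumour-free or untransfected liver is part of the comparison.

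PD-L1, encoded by Cd274, is a surface ligand of the inhibitory receptor PD-1 on activated T cells. Binding of PD-L1 dampens T cell receptor signalling, and an antibody that blocks it can restore T cell proliferation, killing and interferon gamma secretion. Interferon gamma in turn acts on macrophages, endothelium and tumour cells, where it induces guanylate-binding proteins, antigen presentation, the chemokines Cxcl9 and Cxcl10, and PD-L1 itself. The liver holds resident macrophages called Kupffer cells together with T, B, NK and dendritic cells, and hepatocyte RNA can be carried along in a bead capture.

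Values are FPKM (fragment counts adjusted for the length of the transcript and for library size), and library values are given in the order of replicates 0, 1 and 2. Log2 changes are antiPDL1 minus control on the log2(FPKM + 1) scale, which understates changes of weakly expressed genes. Of 24319 entries, 11978 were tested with limma after removal of 22 entries listed at 0 throughout a group but at 5 FPKM or more in every library of another. Ptprc, which encodes CD45, was at 206, 251.1 and 261 FPKM in control and 340.0, 327 and 268 FPKM in antiPDL1. The 14 pan-immune genes measured (Coro1a, Laptm5 and Cd52 among them) were present in all 6 libraries. Relative depth, estimated from the steps of low values, ran from 0.723 to 0.905 of the deepest library in control and from 0.488 to 0.763 in antiPDL1. The abundant entry Mir6236 took 4.97% to 15.7% of the FPKM in control and 7.59% to 11.1% in antiPDL1. Some libraries stood apart within their group. Control replicate 2 was low in Kupffer cell, endothelial and hepatocyte genes and high in B cell genes, antiPDL1 replicate 0 was highest in T cell genes, and antiPDL1 replicate 2 lay between control and the other antiPDL1 libraries for many genes described below. In bulk RNA, fewer cells of a type and less RNA per cell cannot be told apart.

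After PD-L1 antibody, 31 of the 11978 genes fell and 1 rose at an adjusted p under 0.05 (limma, Benjamini-Hochberg), which is 0.259% and 0.00835% of the genes tested (0.267% together). The genes that fell included the keratins Krt8 and Krt18, the growth factor Tgfa and the growth factor binding proteins Igfbp1 and Igfbp3, and the single rise was the mitosis gene Ncapg. At an unadjusted p under 0.05, 913 genes (7.62%) were higher and 1119 (9.34%) lower, and the median log2 change of all genes was 0.01. The 3 antiPDL1 libraries lay entirely above the 3 control libraries for 552 genes (4.61%) and entirely below for 945 (7.89%). These shares of all genes are the base for the list counts below. The number of calls depended on single libraries and on the other groups in the fit. Without antiPDL1 replicate 2 there were 2087 calls and without control replicate 2 there were 395, both including all 32. Without control replicate 1, antiPDL1 replicate 0 or antiPDL1 replicate 1 there was 1 call, Mir760, listed at 0 in all antiPDL1 libraries. A fit of the 6 libraries alone made 0 calls, with 982 genes at an unadjusted p under 0.05. The direction of the 32 genes was kept in each of these fits.

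**Figure D1:**
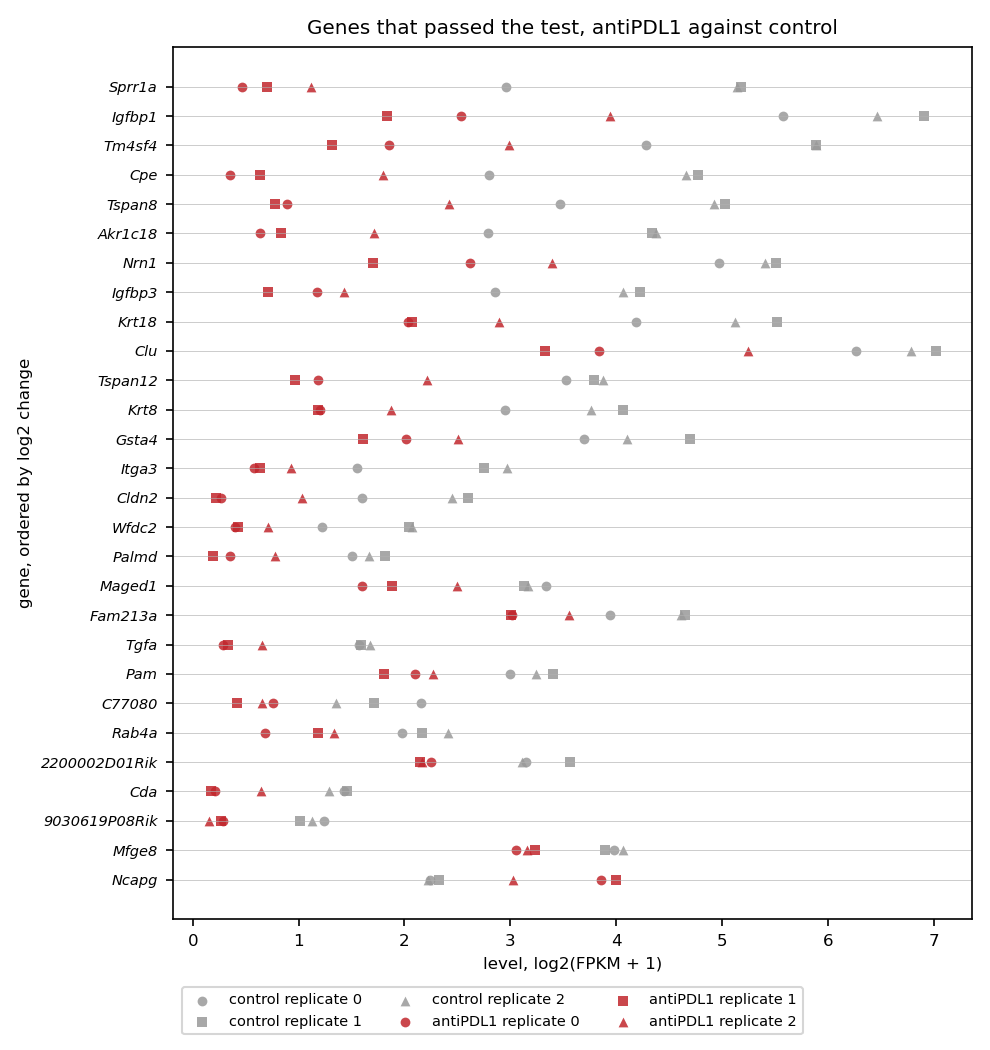
Level of the genes that passed the test, on the log2(FPKM + 1) axis, in the 3 control libraries (grey) and the 3 antiPDL1 libraries (red), with 1 marker shape per replicate; Mir760, listed at 0 in all antiPDL1 libraries, and 3 genes not reported here are not drawn. The red points lie left of the grey points in every gene drawn except Ncapg, and antiPDL1 replicate 2 (red triangle) is often the red point nearest to control.

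Several genes that fell encode structural proteins of epithelia. Krt18 and Krt8, the keratin pair of hepatocytes and other simple epithelia, fell together. Krt18 was at 17.2, 44.98 and 33.8 FPKM in control and 3.09, 3.21 and 6.43 FPKM in antiPDL1 (log2 change -2.61, SE 0.33, limma adjusted p = 0.0132). Every antiPDL1 library was below every control library, and antiPDL1 replicate 2 was the highest of the 3. Krt8 was at 6.72, 15.7 and 12.6 FPKM in control and 1.29, 1.27 and 2.66 FPKM in antiPDL1 (log2 change -2.17), with the same order. Sprr1a, a small proline-rich protein of stressed and cornifying epithelia, had the largest log2 change of the 31 genes and was at 6.75, 35.2 and 34.4 FPKM in control and 0.384, 0.629 and 1.16 FPKM in antiPDL1 (log2 change -3.66, SE 0.47, limma adjusted p = 0.0132). Control replicate 0 was the lowest control library for Sprr1a and still exceeded all antiPDL1 libraries. The related membrane protein Tm4sf4 and the tetraspanin Tspan8 were at 18.5, 58.3 and 58.4 FPKM in control and 2.62, 1.49 and 6.95 FPKM in antiPDL1 and at 10.1, 31.6 and 29.3 FPKM in control and 0.859, 0.718 and 4.37 FPKM in antiPDL1, respectively. Both fell, by 3.30 and 3.11 on the log2 scale. Tspan12, another tetraspanin and a co-receptor in Norrin signalling, was at 10.5, 12.9 and 13.7 FPKM in control and 1.27, 0.952 and 3.65 FPKM in antiPDL1 (log2 change -2.28). Cldn2, a pore-forming tight junction claudin, Itga3, a laminin-binding integrin chain, and Wfdc2, a secreted epithelial protein, fell as well, with log2 changes of -1.70, -1.71 and -1.27 from low levels.

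The list of 24 epithelial, cholangiocyte and keratin genes had 12 members above the low-value filter, of which 5 fell and 0 rose. The median log2 change of these 12 was -1.46, beside 0.01 for all genes, and no single library, left out, moved it by more than 1.5 times. Krt18, Krt8, Sprr1a and Tm4sf4 are members of the list, which was chosen with earlier results of these data known. Its median is therefore not separate support for their fall. Cdh1, the epithelial cadherin that B cells and dendritic cells can also transcribe, was at 9.88, 9.71 and 19.5 FPKM in control and 2.61, 5.61 and 6.16 FPKM in antiPDL1 without passing the test (adjusted p = 0.168). The biliary keratins were barely present. Krt19 was at 0.546, 0.0809 and 0.201 FPKM in control and 0.0657, 0.0814 and 0.595 FPKM in antiPDL1, and Krt7 at 0.446, 0.399 and 0.509 FPKM in control and 0.232, 0.386 and 0.548 FPKM in antiPDL1, and neither reached the filter. Epcam, a surface protein of biliary and progenitor cells, was at 2.96, 3.58 and 4.57 FPKM in control and 2.78, 2.07 and 3.06 FPKM in antiPDL1, with overlapping groups.

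Other genes that fell are described by what they encode, with no list behind the grouping. Tgfa, a ligand of the epidermal growth factor receptor, was at 1.96, 2.01 and 2.19 FPKM in control and 0.216, 0.260 and 0.570 FPKM in antiPDL1 (log2 change -1.19, SE 0.14, limma adjusted p = 0.0132). The 3 control libraries lay within a narrow band and all antiPDL1 libraries were far below it. Igfbp1 and Igfbp3, which bind insulin-like growth factors in plasma, both fell. Igfbp1 was at 46.6, 119 and 87.6 FPKM in control and 4.80, 2.56 and 14.4 FPKM in antiPDL1 (log2 change -3.55), and Igfbp3 at 6.25, 17.7 and 15.7 FPKM in control and 1.25, 0.639 and 1.69 FPKM in antiPDL1 (log2 change -2.61). Clu, an extracellular chaperone, was at 76.2, 129 and 109.5 FPKM in control and 13.3, 9.07 and 36.9 FPKM in antiPDL1 (log2 change -2.55), again with antiPDL1 replicate 2 nearest to control. The neuritogenic surface protein Nrn1 and the peptide-processing enzymes Cpe and Pam fell by 2.73, 3.15 and 1.16 on the log2 scale. Nrn1 was the most abundant of these 3, at 30.4, 44.8 and 41.5 FPKM in control and 5.14, 2.26 and 9.49 FPKM in antiPDL1. Mfge8, a secreted bridge between dying cells and phagocytes, had little spread within groups, at 14.8, 13.9 and 15.8 FPKM in control and 7.29, 8.40 and 7.95 FPKM in antiPDL1 (log2 change -0.83, SE 0.14, limma adjusted p = 0.0352).

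Metabolic enzymes among the calls were Gsta4, a glutathione transferase that removes lipid peroxidation products, Akr1c18, an aldo-keto reductase that inactivates progesterone, and Cda, cytidine deaminase. Gsta4 was at 11.97, 25.02 and 16.2 FPKM in control and 3.05, 2.05 and 4.69 FPKM in antiPDL1 (log2 change -2.12), and Akr1c18 at 5.91, 19.3 and 19.7 FPKM in control and 0.550, 0.777 and 2.28 FPKM in antiPDL1 (log2 change -2.78). Groups did not overlap for either. Other genes that fell were Rab4a, a small GTPase of recycling endosomes, Maged1, an adaptor of neurotrophin receptor signalling, Palmd, Fam213a, 2200002D01Rik, 9030619P08Rik, C77080 and the microRNA gene Mir760. Mir760 was at 7.86, 10.9 and 4.21 FPKM in control and was listed at 0 in all antiPDL1, polyIC and combination libraries, so no fold is given. Its 4.21 FPKM in control replicate 2, under the 5 FPKM of the rule for removal, kept it in the test. Of the 32 genes, 13 had a mean under 5 FPKM over the 6 libraries. The rule for named genes took the 30 smallest p-values, so Maged1 and Ncapg were named after their values were seen.

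Ncapg, a subunit of the condensin complex that compacts chromosomes in mitosis, was the 1 gene that rose. It was at 3.72, 4.02 and 3.68 FPKM in control and 13.5, 15.02 and 7.14 FPKM in antiPDL1 (log2 change 1.36, SE 0.24, limma adjusted p = 0.0493). The control libraries were nearly equal and antiPDL1 replicates 0 and 1 were the highest. It passed the test in 2 of the 12 fits that left out 1 library of the series.

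Genes of hepatocyte plasma proteins had lower sums in antiPDL1 replicates 0 and 1 than in any control library. The 26 hepatocyte plasma protein genes summed to 6321, 5557 and 2266 FPKM in control and 1239.8, 657 and 3365 FPKM in antiPDL1, none of them at 0 in all 6 libraries. Alb, encoding albumin, was at 1601, 1315 and 495 FPKM in control and 276, 124 and 1000.3 FPKM in antiPDL1. The ranges overlapped, since antiPDL1 replicate 2 exceeded control replicate 2 for both the sum and Alb. In the same 2 libraries, Krt18 was at 33.8 FPKM in control and 6.43 FPKM in antiPDL1, and Sprr1a at 34.4 and 1.16 FPKM. The part of hepatocyte RNA in these differences was not tested. Of the 26 genes, 1 fell (Igfbp1), 21 were lower at an unadjusted p under 0.05 and 6 did not overlap. Their median log2 change was -1.40, with all 26 below 0. With 1 library left out it ran from -0.93 without antiPDL1 replicate 1 to -2.01 without antiPDL1 replicate 2, within 1.5 times. With antiPDL1 replicate 2 left out, 20 of the 26 fell, in a fit that called 5.54% of all genes lower, and without control replicate 2, 8 fell, beside 3.01%. Serpina1b, an alpha-1-antitrypsin gene, was at 154, 159.6 and 97.98 FPKM in control and 25.8, 12.96 and 61.5 FPKM in antiPDL1 (adjusted p = 0.0745), and Rbp4, the retinol carrier, at 157, 175 and 92.4 FPKM in control and 23.2, 11.2 and 60.7 FPKM in antiPDL1 (adjusted p = 0.111). The groups did not overlap for either gene. Of 25 hepatocyte metabolic enzymes, 0 passed, 4 were lower and 0 higher at an unadjusted p under 0.05, 0 did not overlap, and the median was -0.83; it was -0.39 without control replicate 0, -1.48 without control replicate 2, -0.52 without antiPDL1 replicate 1 and -1.43 without antiPDL1 replicate 2. Of 16 acute phase proteins, 0 passed, 5 were lower and 1 (Saa3) higher at an unadjusted p under 0.05, and 6 had a log2 change above 0. Their median was -0.56; it was -0.26 without control replicate 0, -1.002 without control replicate 2, -0.16 without antiPDL1 replicate 1 and -0.97 without antiPDL1 replicate 2. The 1 acute phase gene without overlap was Orm2, an orosomucoid, at 0.679, 0.703 and 0.329 FPKM in control and 1.35, 0.796 and 0.738 FPKM in antiPDL1, above control. Among 11 oncofetal and liver tumour genes tested, 1 fell (Akr1c18) and the median was -1.11. Without control replicate 0 this median was -0.70. The middle value was that of Ly6d, which is also in the plasmacytoid dendritic cell list. Ly6d was at 235, 318 and 728 FPKM in control and 138, 180 and 215 FPKM in antiPDL1. H19, an imprinted fetal liver RNA, was at 62.6, 33.5 and 32.7 FPKM in control and 12.01, 4.13 and 19.5 FPKM in antiPDL1, and Afp, encoding alpha-fetoprotein, at 19.8, 20.2 and 6.45 FPKM in control and 3.40, 2.74 and 11.5 FPKM in antiPDL1. Neither passed the test.

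**Figure D2:**
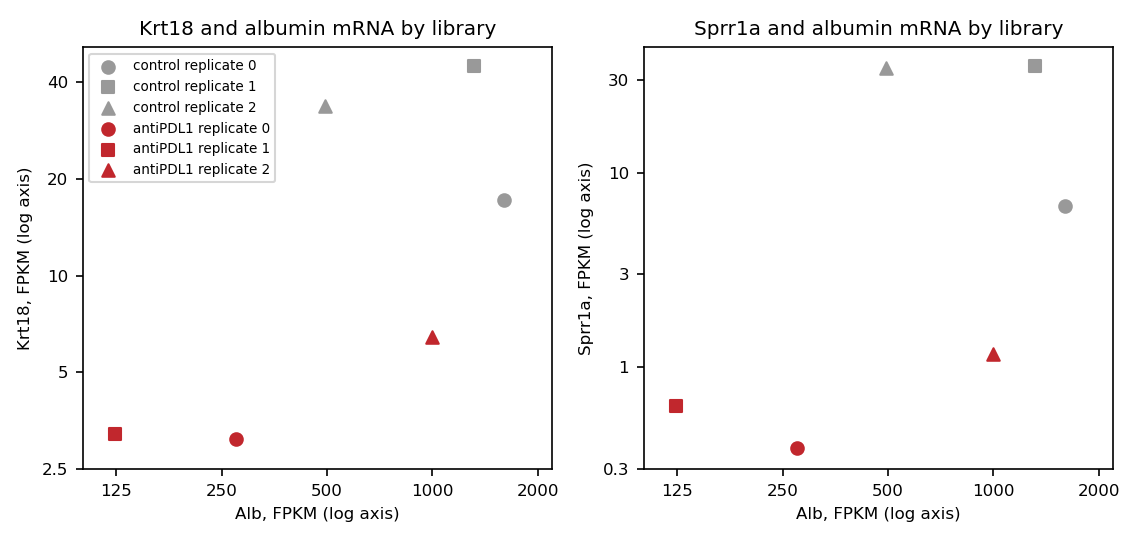
Krt18 (left) and Sprr1a (right) against Alb in the 6 libraries, all in FPKM on log axes, control in grey and antiPDL1 in red, with 1 marker shape per replicate. Krt18 and Sprr1a are lower in each antiPDL1 library than in any control library, and the Alb values of the groups overlap.

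Genes induced by interferon gamma were higher in antiPDL1 as a group, with none of the 29 tested passing the adjusted test. All 29 log2 changes were above 0, beside 50.9% of all genes. At an unadjusted p under 0.05, 22 were higher and 0 lower, and 8 had groups that did not overlap. The median log2 change was 1.10. With 1 library left out it ran from 0.74 without antiPDL1 replicate 1 to 1.59 without antiPDL1 replicate 2, within 1.5 times. By library, the median of these genes relative to the control mean was -0.06, 0.04 and -0.04 in control and 1.33, 1.72 and 0.14 in antiPDL1, so antiPDL1 replicates 0 and 1 carried most of the difference. Gbp2, a guanylate-binding protein of intracellular defence, was at 66.6, 103 and 61.6 FPKM in control and 421, 488 and 85.7 FPKM in antiPDL1 (log2 change 1.78, adjusted p = 0.193). Here antiPDL1 replicate 2 lay within the control range. The related Gbp6 was at 3.63, 4.03 and 4.34 FPKM in control and 14.4, 18.1 and 5.29 FPKM in antiPDL1 (adjusted p = 0.149). Among the immunity-related GTPases, which act on membranes of intracellular pathogens, Irgm1 was at 64.4, 56.6 and 71.3 FPKM in control and 149, 250.7 and 76.3 FPKM in antiPDL1 and Tgtp2 at 5.31, 6.02 and 6.83 FPKM in control and 20.3, 26.5 and 8.68 FPKM in antiPDL1, both without overlap. Reads of Tgtp2 and of its near-identical copy Tgtp1 may have been split between them. The T cell attracting chemokines Cxcl9 and Cxcl10 were at 36.3, 71.9 and 38.5 FPKM in control and 375, 156 and 61.5 FPKM in antiPDL1 and at 44.8, 67.6 and 57.2 FPKM in control and 419, 243 and 60.6 FPKM in antiPDL1. Ifng itself, made by T and NK cells, was at 8.52, 13.6 and 16.8 FPKM in control and 37.8, 37.2 and 19.1 FPKM in antiPDL1 (log2 change 1.20, adjusted p = 0.185), with antiPDL1 replicate 2 just above the highest control library. With antiPDL1 replicate 2 left out, 26 of the 29 genes rose, in a fit that called 11.9% of all genes higher, and with control replicate 2 left out 0 did, beside 0.292%.

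The promoters of these genes were searched for a pair of short elements known from interferon-induced genes. The gamma-activated site, an element of the interferon gamma response, was searched for as TTCNNNGAA, and the interferon-stimulated response element, bound by interferon regulatory factors, as 2 copies of GAAA separated by any 2 bases. Both were sought on both strands, in windows from 250 bases before to 50 bases after the gene start in RefSeq sequence of build GRCm38.p6, which differs from the mm9 build of the expression table. An interferon-stimulated response element was found in 12 of the 17 interferon gamma genes with a promoter in the sequence table (70.59%), beside 367 of 9120 tested genes (4.02%) and 3.44% of all 32851 windows. The gamma-activated site was found in 7 of the 17 (41.18%), beside 8.46% of the tested genes and 8.3% of all windows. Among type I interferon-stimulated genes, 12 of 21 promoters held the response element (57.14%) and 3 the gamma-activated site (14.29%). In the MHC class I list these were 5 of 19 (26.32%) and 2 (10.53%). In the B cell list, 2 of 17 promoters held the response element and 0 held the gamma-activated site. The interferon lists were chosen as known interferon-induced genes, so these shares do not bear on the antibody. A match is a description of the letters, not evidence of binding. Printed below are the 150 bases before the start of Tgtp2 (chr11:49064213-49064362, minus strand) and Ifi47 (chr11:49076437-49076586, plus strand), the 2 genes with the smallest p among the list members with a promoter in the sequence table (Gbp6, with a smaller p than Ifi47, has none there), and of Cd274 (chr19:29367288-29367437, plus strand). Tgtp1 (chr11:48992247-48992396, minus strand), Igtp (chr11:58199406-58199555, plus strand) and Irgm2 (chr11:58214827-58214976, plus strand) were added after the matches were seen, because they share the arrangement of Tgtp2. Capitals mark the gamma-activated site followed by the response element, and all sequences read 5′ to 3′ on the gene's strand.
Tgtp2: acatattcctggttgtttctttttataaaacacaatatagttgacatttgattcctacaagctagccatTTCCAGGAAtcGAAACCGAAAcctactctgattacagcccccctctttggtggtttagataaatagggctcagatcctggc
Tgtp1: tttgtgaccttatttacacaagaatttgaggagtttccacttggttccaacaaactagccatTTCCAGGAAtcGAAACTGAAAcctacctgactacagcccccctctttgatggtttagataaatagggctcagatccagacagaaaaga
Igtp: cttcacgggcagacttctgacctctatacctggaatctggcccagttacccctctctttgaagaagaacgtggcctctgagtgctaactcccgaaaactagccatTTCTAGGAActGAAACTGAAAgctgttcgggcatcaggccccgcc
Irgm2: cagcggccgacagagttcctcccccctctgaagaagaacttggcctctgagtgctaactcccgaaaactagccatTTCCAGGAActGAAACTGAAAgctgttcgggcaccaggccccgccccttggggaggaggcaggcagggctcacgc
Ifi47: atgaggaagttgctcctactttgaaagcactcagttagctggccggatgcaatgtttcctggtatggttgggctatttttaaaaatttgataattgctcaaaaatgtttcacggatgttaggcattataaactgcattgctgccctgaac
Cd274: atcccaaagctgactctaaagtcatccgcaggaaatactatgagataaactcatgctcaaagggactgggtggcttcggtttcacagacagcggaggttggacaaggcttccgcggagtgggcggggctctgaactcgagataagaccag

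In the 4 promoters with capitals the first base of the response element lay 11 bases after that of the gamma-activated site, and the gamma-activated site began 81, 88, 45 and 75 bases before the start of Tgtp2, Tgtp1, Igtp and Irgm2. The windows of Ifi47 and Cd274 held neither set of letters. In the libraries, Igtp was at 39.4, 45.7 and 68.7 FPKM in control and 127, 201 and 56.7 FPKM in antiPDL1 and Irgm2 at 38.7, 31.9 and 27.3 FPKM in control and 53.9, 83.1 and 40.1 FPKM in antiPDL1. Ifi47 was at 116, 133 and 187 FPKM in control and 530.3, 529 and 187 FPKM in antiPDL1 (log2 change 1.39, adjusted p = 0.168). For all 3, antiPDL1 replicates 0 and 1 exceeded the control libraries, and for Irgm2 replicate 2 did too.

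**Figure D3:**
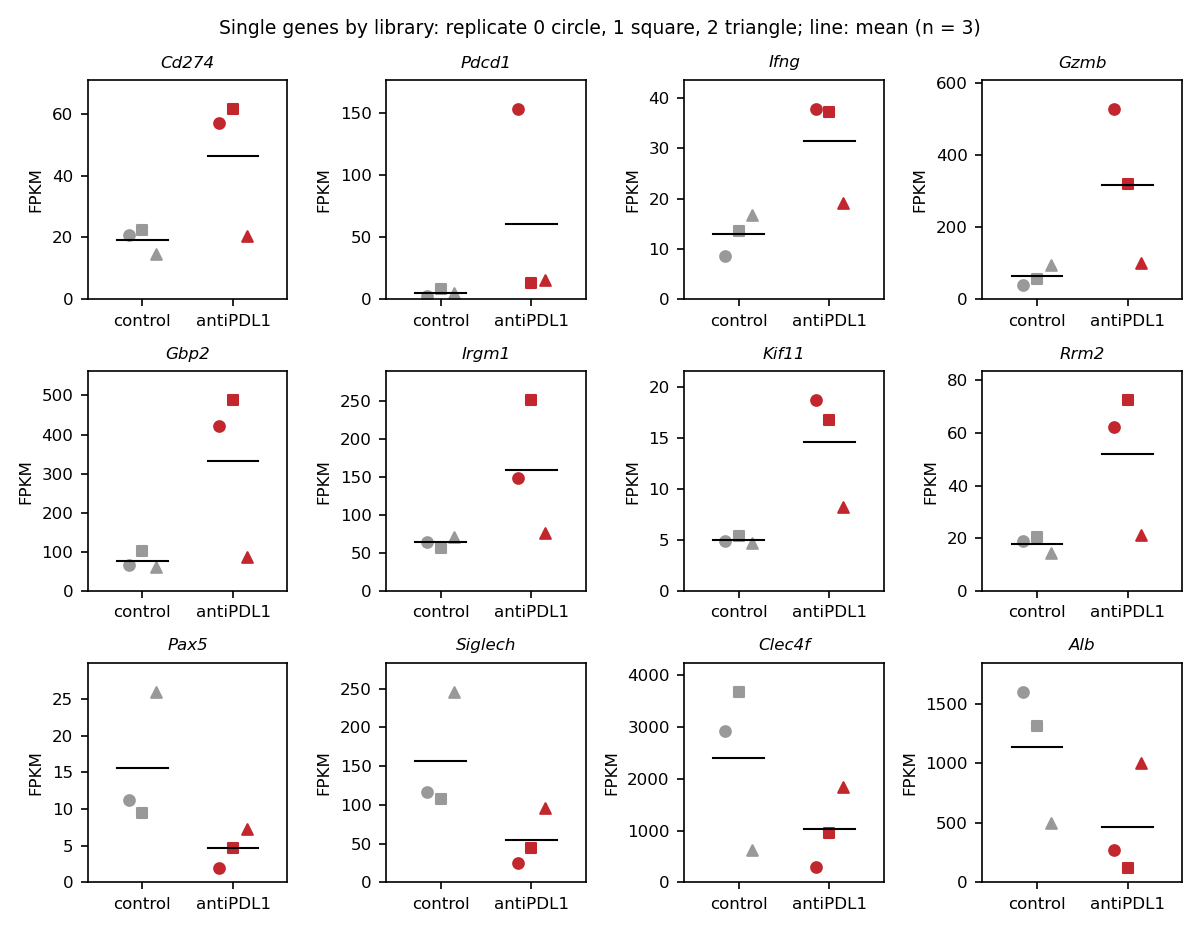
FPKM of 12 genes in each library, control in grey and antiPDL1 in red, with replicate 0 as a circle, 1 as a square and 2 as a triangle and a line at the mean of 3 libraries. Replicates 0 and 1 of antiPDL1 exceed control for Cd274, Ifng, Gzmb, Gbp2, Irgm1, Kif11 and Rrm2, while replicate 2 lies close to control for most of these.

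Cd274, the antibody's target, was at 20.9, 22.5 and 14.6 FPKM in control and 56.8, 61.6 and 20.5 FPKM in antiPDL1 (log2 change 1.09, SE 0.35, limma adjusted p = 0.211). Replicates 0 and 1 of antiPDL1 were above all control libraries and replicate 2 lay within their range. The antibody binds the protein, so this transcript does not check the labels. Pdcd1lg2, which encodes the other PD-1 ligand PD-L2, was at 2.17, 2.40 and 3.12 FPKM in control and 8.32, 4.76 and 2.90 FPKM in antiPDL1 (adjusted p = 0.228). In the list of PD-1 and CD28 family ligands, 14 genes were tested, among them Fgl2 and Fgl1, which bind other receptors. Of the 14, 0 passed the test, and 4 were higher and 1 lower at an unadjusted p under 0.05. Fgl2 was among the 4 and Fgl1 was the 1 lower gene. The median was 0.21. It was 0.38 without control replicate 0, 0.34 without control replicate 1, 0.05 without control replicate 2 and 0.12 without antiPDL1 replicate 0. Fgl2, a prothrombinase and ligand of inhibitory Fc receptors, was the gene of the list above control in every library. It was at 117, 141 and 128 FPKM in control and 213, 368 and 155 FPKM in antiPDL1. Fgl1, a hepatocyte protein that binds LAG-3, was below control in every library, at 7.12, 11.7 and 5.62 FPKM in control and 5.17, 3.85 and 4.71 FPKM in antiPDL1.

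Inhibitory and costimulatory receptors of T cells had a higher median in antiPDL1, carried mostly by replicate 0. By library, their median relative to the control mean was -0.50, -0.04 and 0.52 in control and 1.13, 0.39 and 0.46 in antiPDL1. On this measure antiPDL1 replicates 1 and 2 lay below control replicate 2. Of 18 receptors, 0 passed the adjusted test. At an unadjusted p under 0.05, 9 were higher and 0 lower, beside 7.62% of all genes higher. In 6 the groups did not overlap, beside 4.61% of all genes, and 17 had a log2 change above 0. The median was 0.70; it was 0.41 without control replicate 0 and 0.39 without antiPDL1 replicate 0. Pdcd1, encoding PD-1, was at 2.77, 8.12 and 5.17 FPKM in control and 153, 13.2 and 15.6 FPKM in antiPDL1 (log2 change 2.48, SE 0.75, limma adjusted p = 0.199). Every antiPDL1 library exceeded every control library, and replicate 0 exceeded the other antiPDL1 libraries several times over. Ctla4, an inhibitory receptor that competes with CD28, was at 1.64, 2.74 and 4.24 FPKM in control and 44.7, 6.43 and 12.1 FPKM in antiPDL1 (adjusted p = 0.168). Tnfrsf4, the costimulatory receptor OX40, was at 3.02, 6.12 and 5.33 FPKM in control and 42.2, 12.7 and 12.4 FPKM in antiPDL1 (adjusted p = 0.142). Tigit, an inhibitory receptor shared by T and NK cells, was at 6.65, 15.9 and 15.5 FPKM in control and 149.8, 18.3 and 31.6 FPKM in antiPDL1. None of the 3 overlapped. Havcr2, encoding TIM-3, was at 13.3, 15.5 and 17.96 FPKM in control and 54.8, 18.02 and 19.2 FPKM in antiPDL1, a margin of less than 1 FPKM between the groups. Lag3 was at 21.3, 27.9 and 43.7 FPKM in control and 111, 21.5 and 25.5 FPKM in antiPDL1, and its log2 change of 0.40 became -0.33 without antiPDL1 replicate 0.

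T cell genes and effector molecules showed the same leading library. The 20 genes of the T cell receptor complex and its signalling had 0 calls. At an unadjusted p under 0.05, 12 were higher and 0 lower, beside 7.62% of all genes higher. Their median was 0.92, and it was 0.56 without control replicate 0 and 0.54 without antiPDL1 replicate 0. Their per-library medians relative to the control mean were -0.63, -0.02 and 0.65 in control and 1.75, 0.66 and 0.37 in antiPDL1. Cd8a, the co-receptor of cytotoxic T cells, was at 12.1, 17.2 and 34.3 FPKM in control and 177, 37.8 and 38.4 FPKM in antiPDL1, without overlap. Cd4, the co-receptor of helper T cells, was at 26.1, 42.5 and 61.8 FPKM in control and 43.1, 35.3 and 44.2 FPKM in antiPDL1, with a log2 change of -0.01 and fully interleaved libraries. Of 20 cytotoxic effector genes, 0 passed, and 11 were higher and 0 lower at an unadjusted p under 0.05 (7.62% of all genes higher). The groups did not overlap for 6, beside 4.61% of all genes. The median was 0.87, and it was 1.41 without antiPDL1 replicate 2. Gzmb, the granzyme that activates caspases in target cells, was at 40.1, 55.4 and 95.8 FPKM in control and 529.8, 321 and 102 FPKM in antiPDL1 (log2 change 2.10, SE 0.52, limma adjusted p = 0.156). Gzmk, a granzyme of memory and exhausted CD8 T cells, was at 3.89, 16.9 and 9.89 FPKM in control and 329, 32.3 and 40.6 FPKM in antiPDL1 (adjusted p = 0.152). Replicate 0 was far above the other antiPDL1 libraries for Gzmk, whereas Gzmb was high in replicates 0 and 1. Klrg1, a receptor of terminal effector cells, was at 3.72, 7.42 and 9.36 FPKM in control and 22.9, 16.5 and 11.7 FPKM in antiPDL1, and Prf1, encoding perforin, at 12.1, 17.9 and 31.4 FPKM in control and 54.2, 38.6 and 18.2 FPKM in antiPDL1.

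T cell state genes were less uniform. Of 18 activation and exhaustion factors, 4 were higher at an unadjusted p under 0.05, 0 passed, and the median was 0.37; it was 0.58 without control replicate 2 and 0.20 without antiPDL1 replicate 0. Tox, a regulator of exhausted T cells, was at 4.64, 7.14 and 8.88 FPKM in control and 47.96, 7.76 and 13.3 FPKM in antiPDL1, and Eomes, a T-box factor of effector and exhausted cells, at 2.26, 4.77 and 5.97 FPKM in control and 17.7, 6.73 and 6.22 FPKM in antiPDL1. Of this pair, Eomes was above control in every library, replicates 1 and 2 by a small margin. Of 11 genes of regulatory T cells, 5 were higher at an unadjusted p under 0.05 and the median was 0.46; it was 0.70 without control replicate 1, 0.71 without control replicate 2 and 0.23 without antiPDL1 replicate 0. Foxp3, their lineage factor, was at 0.958, 1.55 and 2.55 FPKM in control and 4.77, 2.24 and 3.32 FPKM in antiPDL1, and Ccr8, a chemokine receptor of tumour regulatory T cells, at 1.02, 1.25 and 1.59 FPKM in control and 13.3, 2.12 and 3.52 FPKM in antiPDL1. Il21, a helper cytokine, was at 0.163, 0.668 and 0.285 FPKM in control and 2.88, 1.27 and 1.53 FPKM in antiPDL1, without overlap. Of 15 naive and stem-like T cell genes, 0 were higher and 4 lower at an unadjusted p under 0.05, and 0 had groups that did not overlap. Their median was -0.59; it was -0.20 without control replicate 2. Bach2, which restrains effector differentiation, was at 5.39, 3.47 and 9.11 FPKM in control and 1.57, 2.13 and 3.95 FPKM in antiPDL1, with control replicate 2 the highest library. Genes of NK and innate lymphoid cells had a median of 0.13 over 20 genes, 1 of which was higher at an unadjusted p under 0.05 (Gzma, also in the cytotoxic list); it was -0.02 without control replicate 0, 0.36 without control replicate 2, 0.35 without antiPDL1 replicate 0 and -0.11 without antiPDL1 replicate 1. Ncr1, the NK cell receptor NKp46, was at 22.3, 29.5 and 42.8 FPKM in control and 12.3, 48.4 and 32.7 FPKM in antiPDL1.

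Cell division genes were higher in all 3 antiPDL1 libraries for many members. Of 24 genes of the G2 and M phases, 0 passed the adjusted test. At an unadjusted p under 0.05, 22 were higher and 0 lower, beside 7.62% of all genes higher. There was no overlap for 13, beside 4.61% of all genes, and all 24 log2 changes were above 0. The median was 1.10, with per-library medians of 0.03, 0.14 and -0.16 in control and 1.47, 1.57 and 0.27 in antiPDL1. With 1 library left out the list median ran from 0.91 without antiPDL1 replicate 1 to 1.51 without antiPDL1 replicate 2, within 1.5 times. Kif11, the spindle kinesin Eg5, was at 4.94, 5.40 and 4.70 FPKM in control and 18.7, 16.7 and 8.24 FPKM in antiPDL1 (log2 change 1.30, SE 0.26, limma adjusted p = 0.0969). Nusap1, a spindle protein, was at 6.12, 7.45 and 6.57 FPKM in control and 22.4, 21.7 and 10.8 FPKM in antiPDL1, and Ccna2, the cyclin of S phase and mitotic entry, at 11.99, 13.5 and 12.2 FPKM in control and 42.96, 46.1 and 19.2 FPKM in antiPDL1. In these 3 genes all antiPDL1 libraries exceeded control, replicates 0 and 1 by the wider margin. Mki67, the proliferation marker Ki-67, was at 7.45, 5.16 and 6.31 FPKM in control and 10.5, 13.97 and 6.14 FPKM in antiPDL1, with replicate 2 inside the control range. Of 22 S phase genes, 16 were higher and 0 lower at an unadjusted p under 0.05, and 7 did not overlap. The same shares of all genes apply. The median was 0.88, and no single library, left out, moved it by more than 1.5 times. Rrm2, a subunit of ribonucleotide reductase, was at 18.96, 20.4 and 14.5 FPKM in control and 62.4, 72.5 and 21.3 FPKM in antiPDL1, with replicate 2 closest to control. With antiPDL1 replicate 2 left out, 23 of the 24 mitotic and 20 of the 22 S phase genes rose, beside 11.9% of all genes. Of 16 glycolysis genes, 8 were higher at an unadjusted p under 0.05, and the median was 0.71; it was 1.08 without antiPDL1 replicate 2. Eno1, encoding enolase, was at 10.6, 8.46 and 4.75 FPKM in control and 17.99, 21.6 and 11.6 FPKM in antiPDL1, and Pfkp, a phosphofructokinase, at 23.7, 26.9 and 30.8 FPKM in control and 64.8, 69.03 and 31.1 FPKM in antiPDL1, both without overlap.

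**Figure D4:**
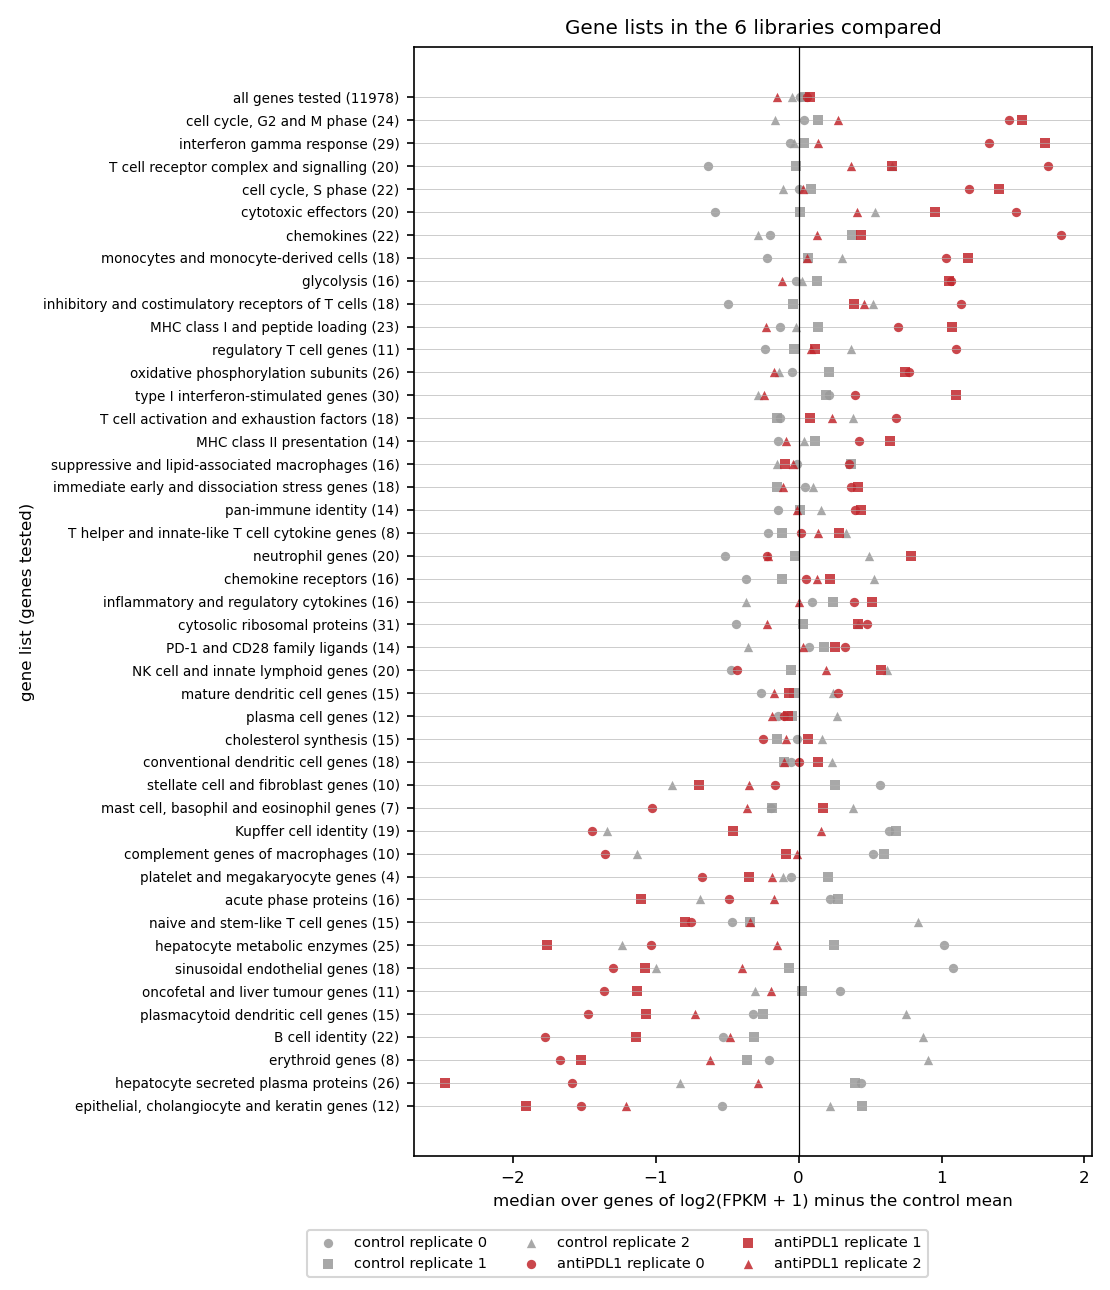
Median over the tested genes of each list of log2(FPKM + 1) minus the control mean, 1 point per library, control in grey and antiPDL1 in red, with the number of genes in brackets and lists ordered by their median change. The red points of the G2 and M phase and interferon gamma lists all lie right of the grey points. Those of the epithelial, plasmacytoid dendritic cell, erythroid and platelet lists all lie left of them.

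B cell genes were lower in antiPDL1. Of 22 genes tested, 0 passed the adjusted test. At an unadjusted p under 0.05, 19 were lower and 0 higher, beside 9.34% of all genes lower. The groups did not overlap for 11, beside 7.89% of all genes, and all 22 log2 changes were below 0. The median was -1.13. With 1 library left out it ran from -0.77 without control replicate 2 to -1.45 without antiPDL1 replicate 2, within 1.5 times. The per-library medians were -0.53, -0.31 and 0.87 in control and -1.78, -1.14 and -0.48 in antiPDL1, and antiPDL1 replicate 2 lay above control replicate 0 on this measure. With antiPDL1 replicate 2 left out, 12 of the 22 fell, beside 5.54% of all genes, and with control replicate 2 left out 0 did, beside 3.01%. Pax5, the lineage factor of B cells, was at 11.2, 9.44 and 25.99 FPKM in control and 1.96, 4.69 and 7.27 FPKM in antiPDL1 (log2 change -1.54, SE 0.42, limma adjusted p = 0.168). Bank1, a scaffold of B cell receptor signalling, was at 53.3, 64.9 and 50.9 FPKM in control and 11.8, 25.1 and 42.8 FPKM in antiPDL1, and Fcer2a, the low-affinity IgE receptor CD23, at 26.5, 33.6 and 81.03 FPKM in control and 6.99998, 10.97 and 20.8 FPKM in antiPDL1. Both had groups that did not overlap, and control replicate 2 was highest for Pax5 and Fcer2a but not for Bank1. Plasma cell genes showed no common direction, with a median of -0.04 over 12 genes, 0 higher and 3 lower at an unadjusted p under 0.05; it was -0.16 without control replicate 0, -0.07 without control replicate 1, 0.16 without control replicate 2, -0.02 without antiPDL1 replicate 0, 0.04 without antiPDL1 replicate 1 and -0.10 without antiPDL1 replicate 2. Jchain, which joins secreted IgA and IgM, was at 32.8, 40.9 and 76.6 FPKM in control and 13.1, 34.3 and 228 FPKM in antiPDL1.

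Plasmacytoid dendritic cell genes were lower too. Of 15 genes, 0 passed, and 12 were lower and 0 higher at an unadjusted p under 0.05 (9.34% of all genes lower). There was no overlap for 10, beside 7.89% of all genes. The median was -1.11, and it was -0.66 without control replicate 2. Its middle value was that of Ly6d, which the oncofetal list also holds. Siglech, their surface lectin, was at 117, 107 and 246 FPKM in control and 25.6, 43.998 and 95.9 FPKM in antiPDL1, with control replicate 2 the highest library. Spib, a factor shared with B cells and counted in both lists, was at 57.8, 52.96 and 128 FPKM in control and 18.4, 29.3 and 43.97 FPKM in antiPDL1. Conventional dendritic cell genes had a median of -0.09 over 18 genes, and 1 was higher and 3 lower at an unadjusted p under 0.05; it was -0.05 without control replicate 0, -0.13 without control replicate 1, -0.14 without control replicate 2, -0.01 without antiPDL1 replicate 0 and -0.01 without antiPDL1 replicate 2. Xcr1, the marker of cross-presenting dendritic cells, was at 13.6, 11.7 and 17.02 FPKM in control and 15.7, 24.1 and 15.7 FPKM in antiPDL1. Mgl2 and Cd209a, lectins of the other conventional subset and of monocyte-derived cells, were at 8.44, 10.7 and 12.7 FPKM in control and 2.64, 7.83 and 7.31 FPKM in antiPDL1 and at 57.7, 61.4 and 115 FPKM in control and 23.7, 26.5 and 51.2 FPKM in antiPDL1, both below control in every library.

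Macrophage genes split by type. Kupffer cell genes varied more within groups than between them. Their 19 genes had 0 higher and 1 lower at an unadjusted p under 0.05, and per-library medians of 0.63, 0.68 and -1.34 in control and -1.45, -0.46 and 0.16 in antiPDL1. Control replicate 2 was the low control library and antiPDL1 replicate 2 the high antiPDL1 library. The median of -0.46 was not stable, since it was -0.11 without control replicate 0, -0.14 without control replicate 1, -1.15 without control replicate 2, -0.12 without antiPDL1 replicate 0 and -1.02 without antiPDL1 replicate 2. Clec4f, a Kupffer cell lectin, was at 2920.2, 3683 and 619.8 FPKM in control and 291, 949 and 1835 FPKM in antiPDL1 (adjusted p = 0.496), and Marco, a scavenger receptor, at 167, 137 and 27.6 FPKM in control and 75.1, 465 and 449 FPKM in antiPDL1. Of 18 monocyte genes, 8 were higher and 0 lower at an unadjusted p under 0.05, beside 7.62% of all genes higher. Just 1 did not overlap, beside 4.61% of all genes above control. The median was 0.78, and it was 0.48 without antiPDL1 replicate 1. S100a4, a calcium-binding protein of monocytes and memory T cells, was at 223, 399 and 582 FPKM in control and 2431, 1466 and 610.2 FPKM in antiPDL1, the gene without overlap. Ccr2, the receptor that draws monocytes from blood, was at 77.3, 105 and 128 FPKM in control and 254, 271 and 119 FPKM in antiPDL1. Irg1, the itaconate-producing enzyme of activated macrophages, and Ly6i, a Ly6 family surface protein, were among the 12 genes with the largest increases that did not overlap. Irg1 was at 4.44, 8.65 and 4.61 FPKM in control and 83.7, 46.9 and 9.73 FPKM in antiPDL1 and Ly6i at 7.15, 10.5 and 12.4 FPKM in control and 247, 261 and 13.9 FPKM in antiPDL1 (log2 change 3.20, adjusted p = 0.168). The Ly6i value of antiPDL1 replicate 2 was close to control, so its mean rests on replicates 0 and 1. Neutrophil genes had 0 of 20 members with an unadjusted p under 0.05 and a median of 0.26; it was 0.00 without control replicate 0, 0.51 without control replicate 2 and -0.04 without antiPDL1 replicate 1.

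Antigen presentation and antiviral genes lay higher in replicates 0 and 1. Of 23 MHC class I and peptide-loading genes, 0 passed, and 7 were higher and 0 lower at an unadjusted p under 0.05. Among all genes 7.62% were higher by that measure. The groups did not overlap for 2 of the 23, beside 4.61% of all genes above control, and all 23 log2 changes were above 0. The median was 0.50; it was 0.30 without antiPDL1 replicate 1 and 0.80 without antiPDL1 replicate 2. Psmb8, an immunoproteasome subunit, was at 277, 386 and 364 FPKM in control and 811, 1012 and 307 FPKM in antiPDL1, and Tap1, a subunit of the peptide transporter, at 89.7, 104 and 102 FPKM in control and 223, 324 and 88.9 FPKM in antiPDL1. Both had antiPDL1 replicate 2 within the control range. Of 14 MHC class II genes, 2 were higher and 2 lower at an unadjusted p under 0.05, with a median of 0.35; it was 0.54 without antiPDL1 replicate 2. Cd74, the invariant chain, is listed at 0 in all 6 libraries and was left out. Of 30 type I interferon-stimulated genes, 6 were higher and 0 lower at an unadjusted p under 0.05, beside 7.62% of all genes higher. The groups did not overlap for 1 of the 30, beside 4.61% of all genes above control. The median was 0.42. It was 0.19 without control replicate 2, 0.08 without antiPDL1 replicate 1 and 0.81 without antiPDL1 replicate 2. Ifit1, which binds viral RNA, was at 11.9, 13.02 and 10.03 FPKM in control and 35.9, 44.2 and 11.5 FPKM in antiPDL1.

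Other liver cells left traces that also differed between libraries. Of 18 sinusoidal endothelial genes, 0 passed, 6 were lower and 0 higher at an unadjusted p under 0.05, 0 did not overlap, and the median was -0.94; it was -0.43 without control replicate 0 and -1.44 without control replicate 2. Their summed FPKM was 1235, 685 and 353 in control and 467, 457 and 494 in antiPDL1, overlapping because of control replicate 2. Pecam1, the endothelial adhesion molecule CD31, was at 59.7, 47.3 and 39.7 FPKM in control and 15.4, 31.9 and 40.1 FPKM in antiPDL1. The 8 erythroid genes tested had a median of -1.28. At an unadjusted p under 0.05, 4 were lower and 1 higher, beside 9.34% and 7.62% of all genes. In every library 2 were below control and 1 above it, beside 7.89% and 4.61% of all genes. The gene above was Tfrc, the transferrin receptor, which dividing cells also express, at 12.9, 15.7 and 15.3 FPKM in control and 17.3, 20.8 and 21.1 FPKM in antiPDL1. Those below were Alas2, the first enzyme of heme synthesis in red cell precursors, and the beta-globin Hbb-b2. Alas2 was at 7.64, 2.53 and 2.94 FPKM in control and 0.955, 0.471 and 2.11 FPKM in antiPDL1. No defining marker of hepatocytes or endothelium was at 0 in all 6 libraries, and the part of endothelial cells in the differences described was not tested.

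The antiPDL1 libraries were also compared with the 3 polyIC libraries, from mice given 4 mg/kg of the double-stranded RNA mimic polyIC on the 5 PBS days and IgG in place of the antibody. In that contrast 18 of 11978 genes passed the test (0.15%), 17 lower in antiPDL1 (0.142%) and 1 higher (0.00835%; limma, Benjamini-Hochberg). Mgl2 was the higher gene, at 0.379, 0.943 and 0.647 FPKM in polyIC and 2.64, 7.83 and 7.31 FPKM in antiPDL1 (log2 difference 1.97, adjusted p = 0.0340). Orm2, which lay above control in antiPDL1, had the smallest p of the 18 and was lower than in polyIC. It was at 11.2, 9.19 and 6.16 FPKM in polyIC and 1.35, 0.796 and 0.738 FPKM in antiPDL1 (log2 difference -2.31, limma adjusted p = 0.0033). Klrc1, encoding the inhibitory receptor NKG2A of NK and CD8 T cells, was at 113, 96.4 and 122 FPKM in polyIC and 18.4, 32.5 and 30.98 FPKM in antiPDL1 (log2 difference -2.01, adjusted p = 0.0382), and its relative Klrc3 was lower as well. Car2, carbonic anhydrase 2, was at 61.04, 53.8 and 52.7 FPKM in polyIC and 9.85, 15.03 and 8.74 FPKM in antiPDL1. Groups did not overlap for these genes. Spry2, a feedback inhibitor of receptor tyrosine kinases, was at 18.9, 15.01 and 16.1 FPKM in polyIC and 3.15, 4.21 and 6.47 FPKM in antiPDL1. The neutrophil granule genes Mpo and Elane were lower from low levels. Both contrasts use the antiPDL1 libraries, so their calls are not set against each other. Krt18 was at 4.63, 6.54 and 4.70 FPKM in the polyIC libraries, beside 3.09, 3.21 and 6.43 FPKM in antiPDL1. Tgfa was at 0.381, 0.456 and 0.348 FPKM in polyIC, beside 0.216, 0.260 and 0.570 FPKM in antiPDL1. Both ranges overlapped, and a p above the threshold does not show equal levels.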

How the data were processed

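RNA from CD45-captured liver cells was sequenced in 12 libraries, of which 3 antiPDL1 and 3 control libraries are compared. The authors deposited 1 table of values per gene and library. Per the submitters' processing notes they used Cuffdiff and the mouse build mm9. The unit was taken to be FPKM from the deposited values, and the aligner, annotation, scaling and version of Cuffdiff were not given in the sources used here. Depth is therefore known only relative to the deepest library, from 49 of 66 pairs of libraries.

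Entries listed at 0 in a whole group but at 5 FPKM or more in every library of another were left out (22), as were genes under 1 FPKM in all but 2 or fewer of the 12 libraries, leaving 11978. Values were used as log2(FPKM + 1) in limma 3.58.1 (R 4.3.3; trend, two-sided, all 4 groups in 1 fit, Benjamini-Hochberg). The script was tested on simulated data. A spreadsheet had turned 27 symbols into dates. The members and the 44 gene lists were chosen with earlier results of these data known. Named genes are the 30 with the smallest p among the calls, the largest non-overlapping changes at a mean of at least 5 FPKM, up to 4 genes per list by p, and a fixed panel; other list members are given as markers chosen after their values were seen. Lists share some genes, and a few genes are not reported here by name. Promoters were matched by symbol to RefSeq. Alternatives were pseudocounts, filters, rescaling, array weights, a replicate block and leaving out each library.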

Additional observations from a re-analysis of the deposited data

How the results depend on the processing

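Against control, the 32 calls became 20 with a pseudocount of 0.1, 139 without a filter, 5 with a mean of at least 5 FPKM, 2594 with array quality weights and 0 with the 6 libraries alone. Leaving out 1 of the 12 libraries gave 1 to 2087 calls. With control replicate 2 and antiPDL1 replicate 2 left out together, an alternative added after seeing the data, there were 3378. Against polyIC, the 18 calls became 10 with a pseudocount of 0.1, 39 with a pseudocount of 5, 0 with a mean of at least 5 FPKM, 673 with array weights, 37 with failed estimates kept, 0 with the 6 libraries alone, 1 to 338 with 1 library left out, 937 with both replicates 2 left out and 41 with small RNA genes left out, another alternative added later. At an unadjusted p under 0.05, the fits of 6 libraries alone had 982 and 1250 genes. Quantile normalization and median-of-ratios rescaling kept the count against control within 1.5 times but made 4 rises each in place of 1. The cause of these differences was not tested. In deviations from group means, same-numbered control and antiPDL1 libraries correlated at -0.29, 0.16 and -0.23, and differently numbered ones at -0.19 to 0.38. Same-numbered polyIC and antiPDL1 libraries correlated at 0.32, 0.094 and 0.23, and differently numbered ones at -0.31 to 0.099. Deviations within such small groups cannot decide whether the replicate numbers mark a pairing. With the replicate block there were 24 calls against control and 31 against polyIC.

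Small log2 changes reversed for 6 named genes. F2rl2 (-0.08) became 0.081 with quantile normalization, 0.13 with weights, 0.30 without control replicate 2, 0.18 without antiPDL1 replicate 0 and 0.32 without both replicates 2, and ranged from -0.36 to 0.30 with 1 library left out. Cd4 (-0.01) became 0.052 with weights, 0.28 and 0.09 without control replicate 2 and antiPDL1 replicate 1, and 0.22 without both replicates 2, and ranged from -0.33 to 0.28 with 1 library left out. With 1 library left out, S100a8 (0.36) ranged from -0.13 to 0.71, Clec1b (-0.61) from -1.29 to 0.12, Lag3 (0.40) from -0.33 to 0.83 and Il10 (0.46) from -0.031 to 0.91.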
